A study of Mus musculus with 2 samples.

Results

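Transcripts of abundant secreted carrier proteins were followed across the cells of the mouse hippocampus. The genes were taken by name: Ttr, Ptgds, Apod, Apoe, Clu, Cst3 and Trf. Of these 7 genes, 6 had a row among the 30223 gene symbols of the deposited table, and Trf was not analysed here. They were chosen by abundance in source classes and by the level of Ptgds, which earlier results of these data showed higher in knock-in cells of several types, so their levels and the differences between genotypes are given as descriptions. The single-cell suspensions came from hippocampus of C57Bl.6/J mice that were either wild-type controls or homozygous for the knock-in allele Pigv341E, an allele edited with CRISPR-Cas9 in a gene of glycosylphosphatidylinositol (GPI) anchor synthesis. Cells of both hippocampi of 4 mice (8 hippocampi) were pooled for each genotype, and both 10x Genomics libraries were sequenced on 1 lane. There was 1 library for each genotype, with no replicate, so genotype and library cannot be told apart, no test was possible and no p-value is given. Age and sex of the mice were not given in the sources used here.

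Carrier proteins bind poorly soluble molecules and move them through blood, cerebrospinal fluid and the space between cells. In the brain they are made by few cell types in large amounts: choroid plexus epithelium secretes transthyretin, meningeal fibroblasts and oligodendrocytes secrete lipocalin-type prostaglandin D synthase and apolipoprotein D, and astrocytes, macrophages and microglia secrete apolipoprotein E, clusterin and cystatin C. These proteins are released from the cell and are not known as GPI-anchored proteins. Because their transcripts are so abundant, low values of them are often read in droplets of cells that do not make them.

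There were 7094 wild-type and 8836 knock-in cells, and 28 barcodes occurred in both libraries; without them the counts of pairs below were the same. The median total of deposited values per cell was 8631 in wild-type and 9608 in knock-in cells, the median number of detected genes was 3122 and 3736, and mitochondrially encoded genes took a median of 0.123% and 0.219% of the values. Pigv itself was read at 0.0886 per 10000 in wild-type cells and at 0.1004 in the knock-in library. The edited site is not read in such values, so they do not check the labels. Cells were clustered without the carrier genes and 14 classes of at least 20 cells in each library were named from markers, with "-like" added to each name; 769 wild-type and 1151 knock-in cells stayed unnamed. A level gives the values of a gene, summed over a class, per 10000 of all values in that class. Ratios are log2 of the knock-in level over the wild-type level, each with 0.1 per 10000 added. Levels were not divided by transcript length and are compared only within a gene.

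Stretches before the RefSeq starts of Ptgds and Apod are shown because these carriers had the same 2 leading classes, fibroblast-like and oligodendrocyte-like. They also had the largest likeness of level across clusters among the carrier genes. Each stretch runs from 250 to 94 bases before the RefSeq start on the minus strand (157 bases, GRCm38.p6). It lies at chr2:25469843-25469999 for Ptgds and chr16:31314902-31315058 for Apod, with matches to the E-box letters CANNTG in capitals. The Ptgds stretch lies inside the gene as annotated on GRCm38 (chr2:25466709-25470046). That of Apod lies outside its annotated gene (chr16:31296192-31314808), so the stretches differ in position relative to the annotated genes.
Ptgds: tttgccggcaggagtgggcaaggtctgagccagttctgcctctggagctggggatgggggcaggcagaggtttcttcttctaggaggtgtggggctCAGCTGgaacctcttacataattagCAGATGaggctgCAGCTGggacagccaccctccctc
Apod: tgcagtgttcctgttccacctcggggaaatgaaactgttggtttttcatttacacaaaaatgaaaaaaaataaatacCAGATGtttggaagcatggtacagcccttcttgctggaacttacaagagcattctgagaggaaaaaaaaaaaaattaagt
The Ptgds stretch held 3 E-box matches and the Apod stretch 1, where 50.8% of 32851 windows of the same length and position held at least 1. Neither held ACAAAG (the core letters of SOX factors, in 10.8% of windows on either strand), CCAAT (in 21% of windows) or GGGCGG (in 17.6% of windows). The base composition differed, with 59.2% G and C for Ptgds and 35.7% for Apod.

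By level, each carrier was concentrated in 1 or 2 classes in both libraries, though these did not always hold most of its values. Taking as a source every class with at least 25% of the level of the highest class in wild-type cells, Ttr had choroid plexus-like cells alone, Ptgds fibroblast-like cells alone, Apod fibroblast-like and oligodendrocyte-like cells, Apoe border macrophage-like and astrocyte-like cells, Clu choroid plexus-like and astrocyte-like cells, and Cst3 microglia-like cells alone. The highest class of each gene was the same in both libraries. Below the leading classes the order was loose: of the 13 neighbouring pairs of classes in the order of levels, the ranges of the 2 libraries overlapped in 10 for Ttr, 11 for Ptgds, 8 for Apod, 6 for Apoe, 9 for Clu and 10 for Cst3.

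**Figure D1:**
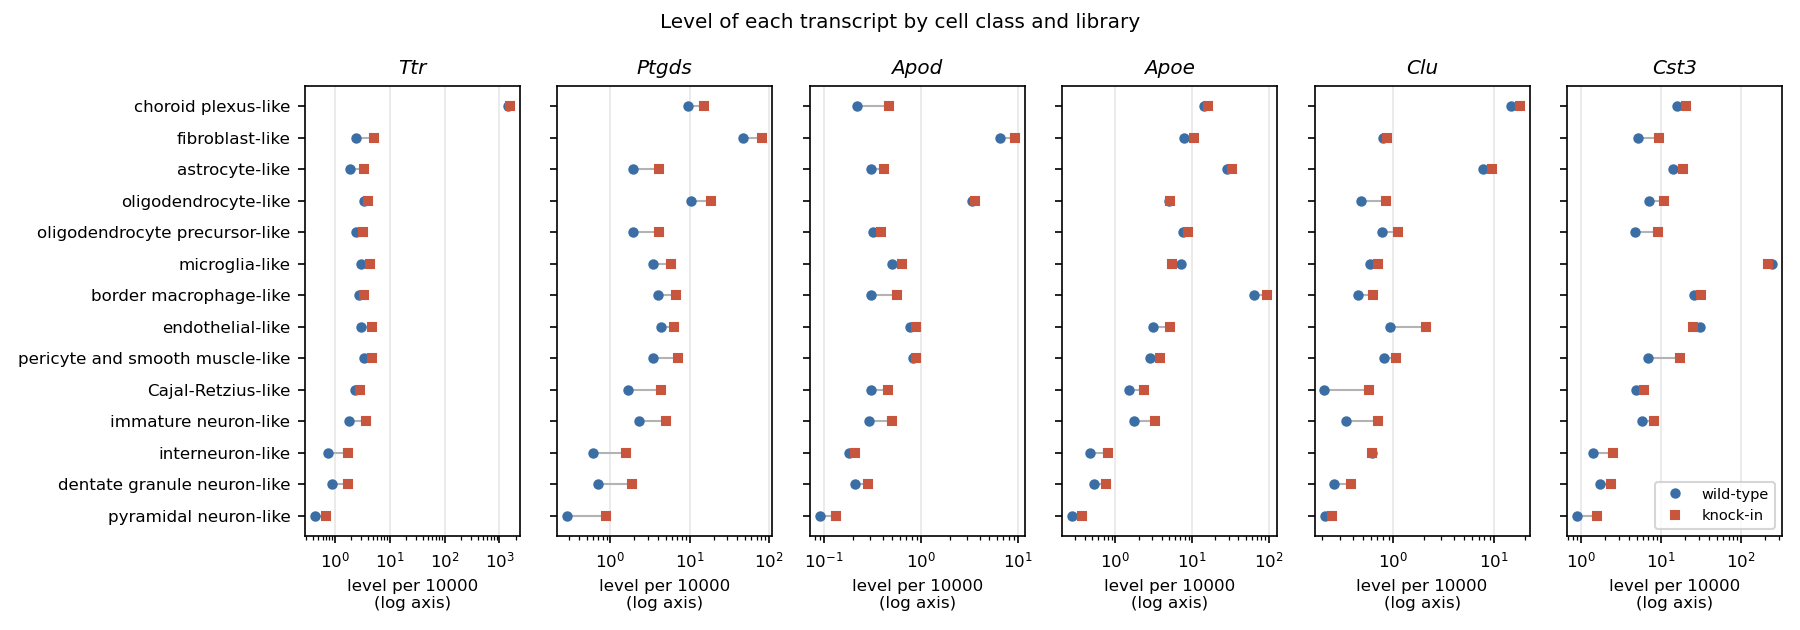
Level of Ttr, Ptgds, Apod, Apoe, Clu and Cst3 per 10000 values (log axis) in 14 cell classes, with a circle for the wild-type and a square for the knock-in library. Ttr stands at 1405 and 1554 in choroid plexus-like cells and at most at 5.19 in any other class, while Ptgds squares lie to the right of the circles in all 14 classes.

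Across all 6 genes and 14 classes, 81 of the 84 ratios were above 0, counting also pairs below the limits given next. Of all genes within those limits, 27.1% (oligodendrocyte-like) to 49.3% (immature neuron-like) had a ratio above 0. Their median ratio lay between -0.18 and -0.003 by class. The size rule asked for a log2 ratio of at least 1 in absolute size, and, in 1 of the libraries, for a level of at least 1 per 10000 together with values above 0 in at least 10% of the cells. Of the 84 pairs of a carrier and a class, 58 met the limits on level and cells, 11 were past the rule as higher in knock-in cells and 0 as lower. Over all genes, 1.41% of 30918 pairs of a gene and a class were past the rule as higher and 1.36% as lower. Since the genes were chosen with these ratios known, nothing is read from the differences between their shares, above 0 or past the rule, and those of all genes. The 11 pairs were 7 of Ptgds, 2 of Ttr, 1 of Clu and 1 of Cst3. Just inside the rule stood Ptgds in pericyte and smooth muscle-like cells with a ratio of 1.03, and just outside it Ttr in immature neuron-like cells with 0.999.

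**Figure D2:**
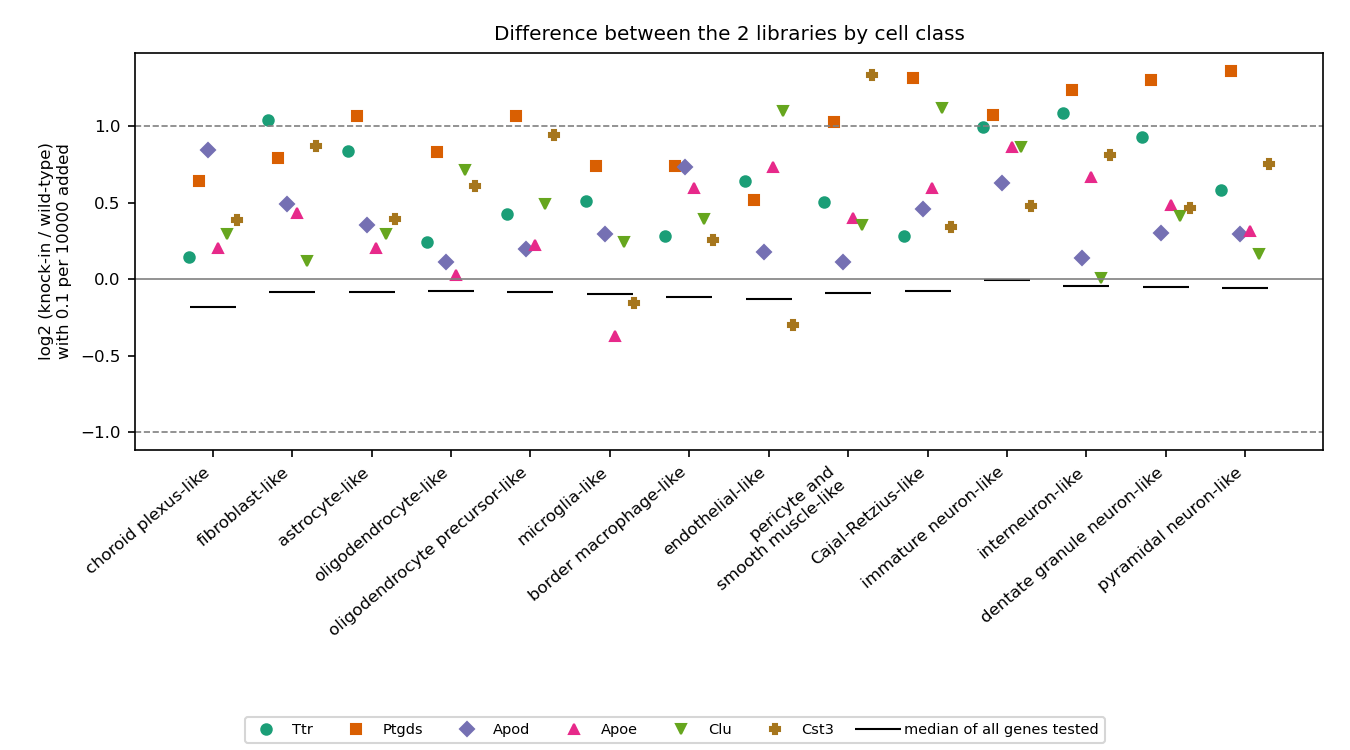
Log2 ratio of knock-in over wild-type level for each carrier in 14 classes, with 1 symbol for each gene, a bar at the median of all genes tested, and dashed lines at 1 and -1. Ptgds lies between 0.52 and 1.37 in every class, and the 3 points below 0 are Apoe and Cst3 in microglia-like and Cst3 in endothelial-like cells.

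Ttr encodes transthyretin, which carries thyroxine and, with retinol-binding protein, retinol. The gene lies at chr18:20665280-20674321 on the plus strand of GRCm38. Its level in choroid plexus-like cells was 1405 per 10000 in wild-type mice and 1554 with the knock-in allele, a log2 ratio of 0.14. In the wild-type library 102 cells, or 1.44% (exact 95% interval 1.17% to 1.74%), belonged to this class, and in the knock-in library 88, or 0.996% (0.7995% to 1.23%). The intervals cover counting error only. The class held 92.1% and 86.6% of all Ttr values of their library. Over all cells Ttr stood at 22.3 in wild-type and 18.5 in knock-in mice (-0.27), the other direction than within the class.

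The choroid plexus-like class was made of 2 clusters that differed far more in Ttr than the libraries did. In the cluster led by Sostdc1 and Folr1 (62 wild-type and 67 knock-in cells) the Ttr level was 2375 and 2028. The value of single cells there ran from 132 over a median of 1801 to 5441 in wild-type, and from 199 over 1892 to 4706 in knock-in cells. In the cluster led by Htr2c and Tmem72 (40 and 21 cells) the level was 70.3 and 86.7, and the median cell stood at 61 and 67. No cell of either cluster was at 0, and the lowest had a value of 23 in both libraries. The clusters also differed in mitochondrially encoded genes, with medians of 3.50% and 0.120% of values, and the share of the class in the first cluster differed between libraries. With the 2 clusters given the same weight in both libraries the ratio of Ttr was -0.22, so its sign in choroid plexus-like cells was not stable, and the same held for Clu (0.30 against -0.04) and Apoe (0.21 against -0.07).

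Outside the choroid plexus-like class Ttr was low but widespread. Its level in the other 13 classes ran from 0.429 in pyramidal neuron-like to 3.44 in oligodendrocyte-like cells of the wild-type library (median 2.40), and from 0.692 in pyramidal neuron-like to 5.19 in fibroblast-like cells of the knock-in library (median 3.42). The median was 0.171% of the choroid plexus-like level in wild-type and 0.220% in knock-in cells. For 4 other transcripts led by the choroid plexus-like class the same comparison gave 0.175% and 0.199% (1500015O10Rik), 0.337% and 0.610% (Igfbp2), 0.225% and 1.74% (Igf2, itself under 1 per 10000 in the class), and 1.16% and 0.797% (Enpp2, also a transcript of oligodendrocytes). The summed level of 14 choroid plexus markers was higher in knock-in cells in 10 of the other 13 classes (median ratio 0.21, range -0.75 to 0.94). All 13 ratios of Ttr itself were above 0, from 0.25 to 1.09. A value of Ttr above 0 was found among dentate granule neuron-like cells in 53.8% of 1460 from wild-type and 70.7% of 1453 from knock-in mice (median genes 3914 and 4197), and in 31.3% of 1215 and 46.8% of 1589 pyramidal neuron-like cells. After thinning each cell to a total of 1000 the dentate shares were 8.08% and 12.04% and the pyramidal shares 5.51% and 6.99%. The deposited values are corrected for depth, so a value of 1 need not be a molecule, and whether these values come from RNA of other cells was not tested.

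A few cells decided where Ttr was past the size rule. In fibroblast-like cells the level was 2.46 in wild-type and 5.19 in knock-in cells (ratio 1.04, where 0.381% of the genes tested in this class were past the rule as higher), but 1 knock-in cell had a value of 383. Without the 1% of cells of highest value in each library the levels were 2.27 and 3.17 (0.47). In interneuron-like cells the levels were 0.766 and 1.74 (1.09, background 0.524%), and 0.719 and 1.11 without those cells (0.56). The dentate granule neuron-like ratio moved from 0.93 to 0.54: in the dentate cluster led by C1ql2, Ttr stood at 0.792 in wild-type and 4.65 in knock-in cells, and the 3 highest of its 221 knock-in cells had values of 402, 235 and 64 against a median of 1. Leaving out the highest cells raised the immature neuron-like ratio from 0.999 to 1.02. Ttr thus remained above 0 in all 13 classes on this count, with ratios of 0.32 to 1.02.

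**Figure D3:**
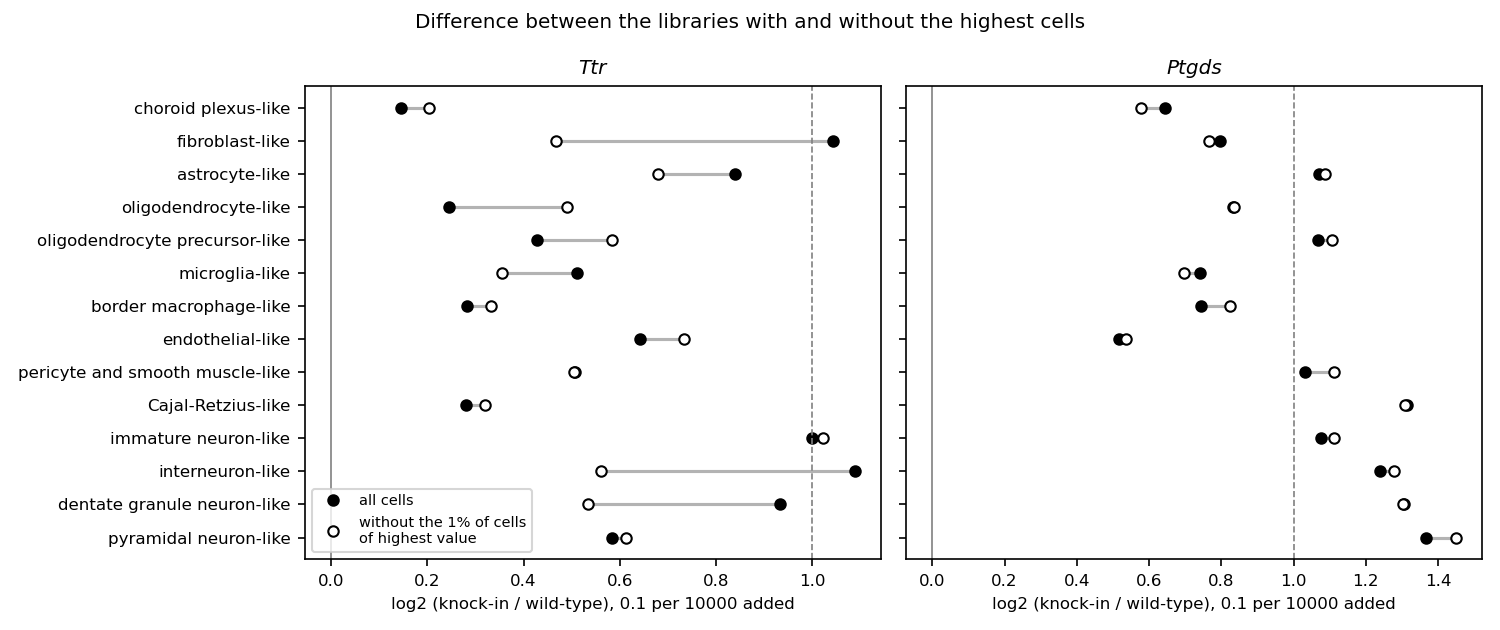
Log2 ratio of Ttr (left) and Ptgds (right) by class over all cells (filled circles) and without the 1% of cells of highest value of that gene in each class and library (open circles). Ttr in fibroblast-like cells moves from 1.04 to 0.47 and in interneuron-like cells from 1.09 to 0.56, while every Ptgds ratio moves by less than 0.1.

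The cells behind those values were rare. A Ttr value of 50 or more was found in 7 of 6992 wild-type and 12 of 8748 knock-in cells outside the choroid plexus-like class, and these cells held 9.50% and 12.6% of the Ttr values outside it. The wild-type cells were 4 oligodendrocyte-like, 1 oligodendrocyte precursor-like and 2 unnamed cells. Of the knock-in cells 2 were unnamed, and the others fell into 6 named classes, among them 3 dentate granule neuron-like and 2 interneuron-like cells. Their summed value over the choroid plexus markers had a median of 3 in wild-type and 5 in knock-in cells, against 0 in the remaining cells and 41.5 and 48.5 in choroid plexus-like cells. Only 1 of the 19 was called as a doublet, and the part of mixed droplets in these values was not tested further.

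Ptgds encodes lipocalin-type prostaglandin D synthase, which makes prostaglandin D2 and, once secreted, carries retinoids and other lipophilic molecules. The gene lies at chr2:25466709-25470046 on the minus strand. Over all cells its level was 3.79 per 10000 without and 7.52 with the knock-in allele, a ratio of 0.97 that 4 of the 2075 genes tested exceeded. The level was higher in knock-in cells in 14 of 14 classes, with ratios from 0.52 in endothelial-like to 1.37 in pyramidal neuron-like cells. The pyramidal neuron-like levels, 0.284 and 0.890, were below the limits of the size rule, and this ratio ran from 0.56 to 1.74 under other settings. Ptgds was also higher in knock-in cells in 34 of 34 clusters with at least 20 cells in each library, with ratios from 0.30 to 1.87 and a median of 1.05. This is the difference for which the gene was chosen, and it is given as a description.

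Ptgds was highest in fibroblast-like, oligodendrocyte-like and choroid plexus-like cells. In fibroblast-like cells the level was 47.6 in wild-type and 82.8 in knock-in cells (0.80), the median cell stood at 16 and 41, and the highest at 293 and 1345. In oligodendrocyte-like cells the level was 10.5 and 18.7 (0.83), the median cell stood at 6 and 12, and the upper quartile at 11 and 19. In choroid plexus-like cells it was 9.66 and 15.2 (0.65), with median cells at 5 and 13, but its 2 clusters were mixed in different shares. In the cluster led by Sostdc1 and Folr1 Ptgds was 15.6 and 19.2 (0.30), with median cells at 13 and 15, and in the one led by Htr2c and Tmem72 it was 1.46 and 2.65, with median cells at 1 and 2. None of the 3 classes was past the size rule, and without the 1% of highest cells the ratios were 0.77, 0.84 and 0.58. In an unnamed cluster led by Slc47a1 and Bnc2 the level was 10.4 in 24 wild-type and 38.4 in 87 knock-in cells (1.87), with median cells at 3 and 6. The 3 highest cells of each library (58, 55 and 27 against 1206, 337 and 311) held 68.0% and 66.3% of its Ptgds values, and without them, a setting chosen after seeing the data, the levels were 3.83 and 13.5 (1.79).

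The 7 classes past the rule had lower levels, and with 1 per 10000 added in place of 0.1 none of the 7 was past it, with ratios of 0.68 to 0.99. In dentate granule neuron-like cells Ptgds stood at 0.688 in wild-type mice and 1.85 with the knock-in allele (ratio 1.31, where 0.201% of genes tested were past the rule as higher). In interneuron-like cells it was 0.603 and 1.56 (1.24, background 0.524%), in Cajal-Retzius-like cells 1.69 and 4.36 (1.31, background 1.08%), and in immature neuron-like cells 2.31 and 4.97 (1.07, background 0.861%). Within the interneuron-like class Ptgds was 0.578 and 1.41 (1.16) in the cluster led by Kcnmb2 and Dlx6os1. In the less surely named cluster led by Lef1 and Otx2os1 it was 0.652 and 1.73 (1.28). Among glia it was 1.92 and 4.13 in astrocyte-like cells (1.07, background 0.347%) and 1.90 and 4.10 in oligodendrocyte precursor-like cells (1.07, background 0.349%). In pericyte and smooth muscle-like cells, of which there were 27 and 48, it was 3.41 and 7.07 (1.03, background 3.47%). Neurons and precursors are not known as main sources of this enzyme, and the level in them was higher along with that of the leading classes. The median over the 13 classes outside fibroblast-like cells was 2.31 in wild-type and 4.97 in knock-in cells, which was 4.84% and 6.01% of the fibroblast-like level.

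The share of cells with Ptgds moved in the same direction. Among dentate granule neuron-like cells, the share with a value above 0 was 42.8% (40.3% to 45.4%) of 1460 in wild-type and 78.4% (76.2% to 80.5%) of 1453 in knock-in mice, and the share with a value of 2 or more was 13.8% and 48.0%. After thinning the shares above 0 were 6.37% and 14.3%. Among pyramidal neuron-like cells the shares above 0 were 20.8% of 1215 and 54.6% of 1589, and 2.63% and 9.38% after thinning. Values of 10 or more were found among dentate granule neuron-like cells in 0 of 1460 from the wild-type library (an upper bound of 0.252%) and 8 of 1453 from the knock-in library, against 30.8% and 59.1% of oligodendrocyte-like cells. Most neurons with Ptgds thus had a value of 1 or a few.

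Markers of the leading classes were compared in the same way, beside a median ratio of 1.07 for Ptgds outside fibroblast-like cells. Outside fibroblast-like cells the summed level of 12 fibroblast markers was higher in knock-in cells in 13 of 13 classes. The ratios ran from 0.09 to 2.03 with a median of 0.53. The summed levels were 0.156 to 11.9 in wild-type and 0.269 to 15.9 in knock-in classes. None of the 12 was past the size rule in any of these classes. The highest sums, 11.9 and 15.9, were those of choroid plexus-like cells. There Igfbp2, a transcript led by that class, stood at 10.5 and 14.1, so these sums are not read as fibroblast RNA. Igf2, also among the 12, was led by that class too. Over 12 classes of lower level the median of Igfbp2 was 0.0353 in wild-type and 0.0862 in knock-in cells, with a ratio above 0 in 11. The count of 13 classes is thus not read as fibroblast RNA alone. The next highest sums were 1.49 in wild-type and 2.28 in knock-in pericyte and smooth muscle-like cells. Of the 12 markers, 0 were at 0 in both libraries in the 3 neuron classes with the most cells, and 4 in immature neuron-like cells, the most in any class. For 18 oligodendrocyte markers the summed level was higher in 9 of 13 other classes (median 0.12), from 1.69 to 17.3 and from 1.68 to 19.5. Mbp, which encodes myelin basic protein, stood at 0.972 and 0.992 as medians over the classes outside oligodendrocyte-like cells. The share of fibroblast-like cells was 1.54% (1.26% to 1.85%) in wild-type and 2.81% (2.47% to 3.17%) in knock-in mice, and that of oligodendrocyte-like cells was 21.2% and 17.1%. Of all Ptgds values, fibroblast-like cells held 17.6% in wild-type and 27.9% in knock-in cells, and oligodendrocyte-like cells 52.9% and 37.96%. Detected genes per cell and mitochondrially encoded values were also higher in the knock-in library. The part of these differences, and of RNA from other cells, in the Ptgds values was not tested.

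**Figure D4:**
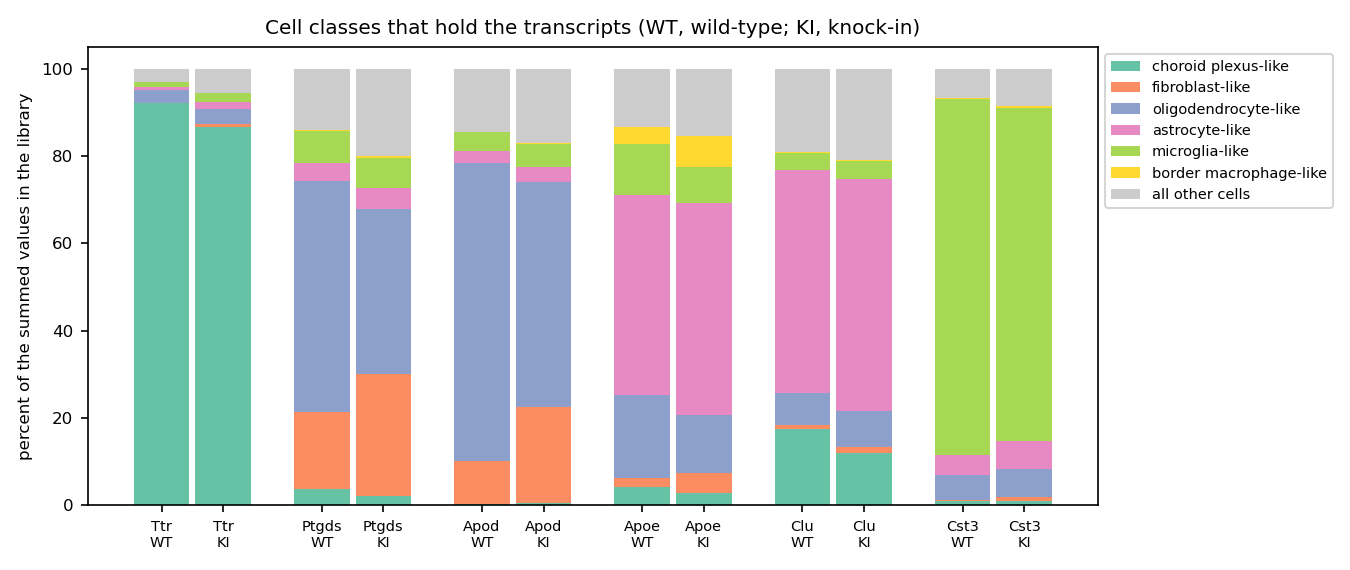
Share of all values of each carrier (percent of the sum in a library) held by 6 source classes and by all other cells, with the wild-type bar (WT) on the left and the knock-in bar (KI) on the right of each pair. Choroid plexus-like cells hold 92.1% and 86.6% of Ttr, and the fibroblast-like part of Ptgds is 17.6% in wild-type and 27.9% in knock-in cells.

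Apod encodes apolipoprotein D, a lipocalin that binds arachidonic acid and progesterone. The gene lies at chr16:31296192-31314808 on the minus strand. It shared its leading classes with Ptgds, and across the 34 clusters the log levels of the pair had a Pearson correlation of 0.870 in wild-type and 0.927 in knock-in cells, given as a description over clusters that share libraries and depth. Yet its levels in the 2 libraries were close in oligodendrocyte-like cells, at 3.32 and 3.59 (0.11), and nearer than those of Ptgds in fibroblast-like cells, at 6.55 and 9.25 (0.49). The median oligodendrocyte-like cell stood at 2 in both libraries. No class was past the rule, and 2 classes met its limits. The difference between the ratios of Ptgds and Apod has no replicate check.

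Within oligodendrocyte-like cells the pair was ordered differently over clusters. In the cluster led by Cryab and Mal (51 wild-type and 99 knock-in cells) both levels were highest. Ptgds stood there at 28.3 and 37.3 and Apod at 8.66 and 7.93. Single cells reached 209 and 479 for Ptgds and 42 and 69 for Apod. The median cell stood at 9 and 12 for Ptgds and at 4 and 3 for Apod. In the largest cluster, led by Pde8a and Pde4b (986 and 1002 cells), Ptgds was at 12.4 and 20.7 and Apod at 2.59 and 2.83. Its median cells stood at 8 and 14 for Ptgds and at 2 and 2 for Apod. In the cluster led by Anln and Hapln2 (436 and 383 cells) the order was the other way, with Ptgds at 4.40 and 9.19 and Apod at 4.48 and 4.60. Its median cells stood at 2 and 6 for Ptgds and at 3 and 3 for Apod. By the median knock-in cell, Ptgds was thus highest in the largest cluster, not in that led by Cryab and Mal. Apod was then equal in the clusters led by Cryab and Mal and by Anln and Hapln2. Ptgds was higher and Apod nearly level between the libraries in the 2 larger of these clusters. The cluster led by Cryab and Mal had a median of 1.16% mitochondrially encoded values, above the 0.445% and 0.284% of the others, and Cst3 was also highest there, at 63.9 and 54.7.

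Apoe encodes apolipoprotein E, the main apolipoprotein of the brain, which delivers cholesterol to neurons through receptors of the LDL receptor family. The gene lies at chr7:19696109-19699188 on the minus strand. Its level was 63.0 in 25 wild-type and 95.3 in 41 knock-in border macrophage-like cells (0.60), whose cells were spread from 0 to 255 around a median of 23 and from 0 to 297 around 60. The summed level of the 7 border macrophage markers in the same cells was 21.5 and 45.3 (1.07), with 2 of the 7 past the size rule as higher, and its part in the Apoe difference was not tested. In astrocyte-like cells it was 28.5 and 32.8 (0.21), with median cells at 20 and 23. These held 45.7% and 48.5% of all Apoe values, and border macrophage-like cells 3.95% and 7.10%. Oligodendrocyte-like cells held 19.0% and 13.2%, and microglia-like cells 11.7% and 8.38%. Choroid plexus-like cells followed at 14.1 and 16.3, fibroblast-like cells at 7.78 and 10.6, and oligodendrocyte precursor-like cells at 7.66 and 8.94. No class was past the rule.

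Among astrocyte-like clusters Apoe was higher in the one led by Myoc and Gfap (83 and 101 cells), at 45.7 and 48.4, than in the large one led by Rgs20 and Slc1a2 (529 and 720 cells), at 25.3 and 29.8. Cst3 had the opposite order in the same cells, at 8.33 and 10.6 in the first and 14.3 and 18.6 in the second. Both differences between these clusters had the same direction in each library, and the clusters were formed without these genes. A small astrocyte-like cluster of 4 wild-type and 10 knock-in cells was highest in both genes. Apoe stood there at 86.9 and 86.1 and Cst3 at 127.5 and 108.4, so the opposite order did not extend to it. In microglia-like cells Apoe stood at 7.16 in wild-type and 5.50 in knock-in cells (-0.37), its only ratio below 0. In the microglia-like cluster led by Tyrobp and C1qb (166 of 663 wild-type and 114 of 858 knock-in cells) it was 18.8 and 20.1. The median cell there stood only at 4 and 3 and the upper quartile at 8 and 8, while the highest cell had 221 and 266. In the cluster led by Inpp5d and Dock8 Apoe was 3.91 and 4.28, with median cells at 1 and 3. In the one led by P2ry12 and Cx3cr1 it was 3.76 and 3.17, with median cells at 1 and 1. With equal weights of the clusters the microglia-like ratio was 0.03.

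**Figure D5:**
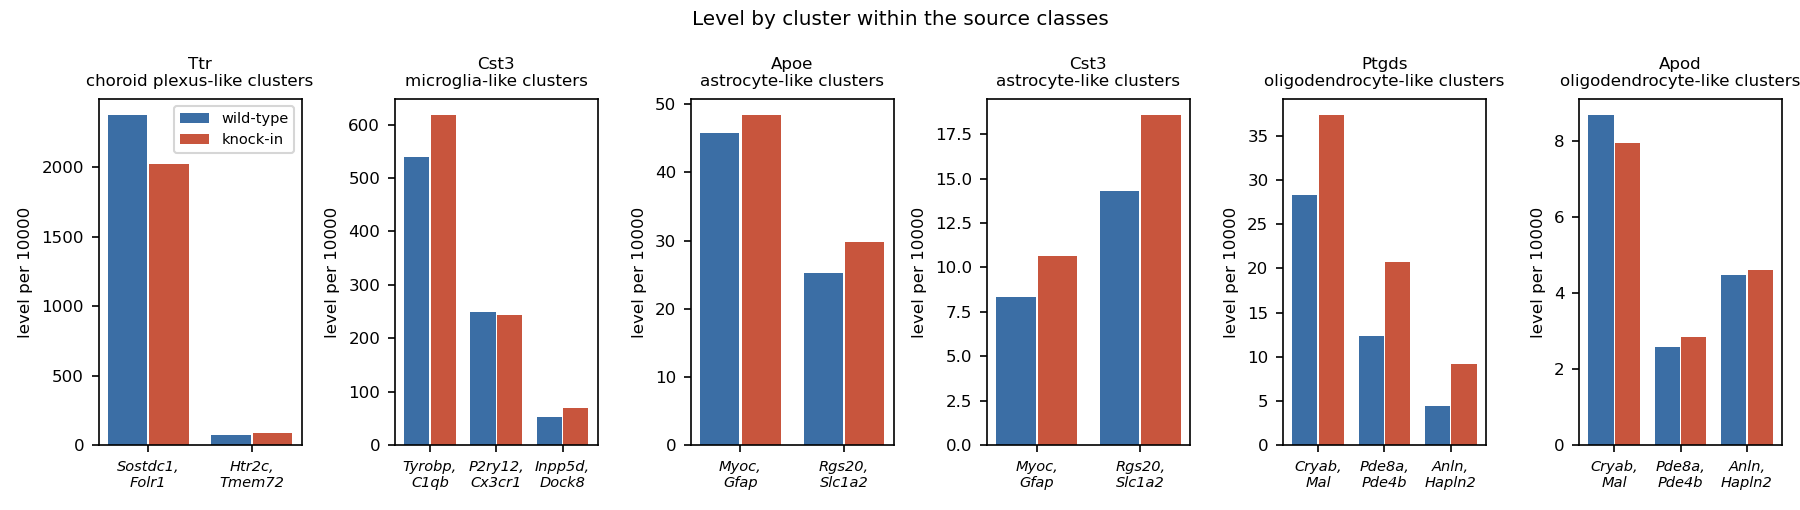
Level per 10000 of Ttr, Cst3, Apoe, Ptgds and Apod by cluster within the source classes, with wild-type and knock-in bars and each cluster labelled by 2 of its leading genes; a small astrocyte-like and a small oligodendrocyte-like cluster are not drawn. Cst3 in microglia-like clusters runs from 52.6 to 617. Apoe and Cst3 have opposite orders in the 2 astrocyte-like clusters drawn, and Ptgds and Apod differ in order between the oligodendrocyte-like clusters.

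Clu encodes clusterin (apolipoprotein J), a secreted chaperone that also binds lipids. The gene lies at chr14:65968483-65981547 on the plus strand. Its level in choroid plexus-like cells was 14.5 in wild-type and 17.9 in knock-in mice (0.30) and 7.78 and 9.56 in astrocyte-like cells (0.29). Astrocyte-like cells held 51.2% and 53.1% of all Clu values, and choroid plexus-like cells 17.4% and 11.9%. As for Ttr, the choroid plexus-like clusters stood far apart, at 23.9 and 22.8 in the one led by Sostdc1 and Folr1 and 1.64 and 2.603 in the other. Clu was past the rule in endothelial-like cells, at 0.925 in 25 and 2.10 in 43 cells (1.10), a class where 4.05% of the genes tested were past it as higher. The summed level of 11 astrocyte markers in these cells was 9.52 and 17.1 (0.84), with 2 of the 11 past the rule as higher, and its part in the Clu difference was not tested.

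Cst3 encodes cystatin C, an inhibitor of cysteine proteases such as the cathepsins. The gene lies at chr2:148871722-148875692 on the minus strand. Microglia-like cells had 245 per 10000 in wild-type mice and 219.6 with the knock-in allele (-0.16) and held 81.5% and 76.4% of all Cst3 values. Endothelial-like cells had 31.0 and 25.2 (-0.30) and border macrophage-like cells 26.3 and 31.4 (0.26). The median endothelial-like cell stood at 9 in both libraries and the highest at 149 and 181, and the median border macrophage-like cell at 9 and 13. The summed level of the microglia markers in endothelial-like cells was 16.1 and 7.99, and its part in their Cst3 values was not tested. The microglia-like median cell stood at 167 and 138, and no microglia-like cell was at 0.

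The 3 microglia-like clusters covered a wide range of Cst3. It was 539 and 617 in the cluster led by Tyrobp and C1qb, 249 and 243 in the one led by P2ry12 and Cx3cr1, and 52.6 and 69.3 in the one led by Inpp5d and Dock8. The first took 166 of 663 wild-type but 114 of 858 knock-in cells, and its median share of mitochondrially encoded values was 1.85%. With equal weights of the clusters the microglia-like ratio was 0.11. Outside microglia-like cells the ratio was above 0 in 12 of 13 classes, with a median level of 5.84 and 9.60. In pericyte and smooth muscle-like cells Cst3 was past the rule, at 6.86 in 27 and 17.5 in 48 cells (1.33). The median cell there stood at 4 and 9, and without the highest cell of each library the levels were 5.97 and 14.0 (1.22). The summed level of 10 microglia markers in these cells was 0.624 and 4.95 (2.80), with 2 of the 10 past the rule as higher. Other microglial transcripts were also read outside their class: the median of C1qa over the other classes was 0.254 and 0.712, and that of C1qb 0.223 and 0.648. The part of microglial RNA in the Cst3 values of these classes was not tested.

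Each carrier was compared with 6518 genes over the 34 clusters to find the genes whose level followed it most closely in wild-type cells, by the correlation of log levels. For Ttr these were Krt18 (0.875 in wild-type and 0.848 in knock-in cells), Calml4 and Arl6ip1. For Ptgds they included Apod and Gsn (0.818 and 0.799), which encodes gelsolin. Apod was followed by Kif13b (0.912 and 0.883), Cdc37l1 and Rnf220, Apoe by Acadl (0.843 and 0.767), Gm29216 and Mt1, Clu by Ndrg2 (0.868 and 0.894), Prelp and Id3, and Cst3 by Gm49369 (0.937 and 0.948), Itm2b and Tmsb4x. The correlations describe 34 clusters of the same libraries. Between the carriers themselves they ran from 0.170 for Apod and Clu to 0.870 for Ptgds and Apod in wild-type cells.

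Genes that act with the carriers were described by lists. For Ttr, 17 genes of retinoid and thyroid hormone handling gave 38 pairs of a gene and a class within the limits, of which 0 were past the rule in either direction. Slco1c1, a thyroxine transporter, was highest in endothelial-like cells, at 7.51 and 5.16 (-0.53). Aldh1a2, which makes retinoic acid, was highest in fibroblast-like cells, at 2.54 and 3.74 (0.54).

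For Ptgds, 15 genes of prostaglandin synthesis and its receptors gave 12 pairs within the limits and 0 past the rule. Ptgs1, the cyclooxygenase that makes the substrate of Ptgds, was highest in microglia-like cells at 2.57 and 2.91 (0.17). Hpgds, the haematopoietic enzyme that makes the same product as Ptgds, was also highest there, at 4.46 and 4.73 (0.08). Tbxas1, which makes thromboxane from the same substrate, stood at 3.54 and 4.26 (0.26).

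For Apoe, Apod and Clu, 11 genes of lipid efflux and lipoprotein assembly gave 13 pairs and 0 past the rule, with Abca1, a cholesterol exporter, at 2.38 and 2.69 in microglia-like cells. Of 47 pairs from 11 lipoprotein receptor genes, 0 were higher and 2 were lower: Sorl1 in border macrophage-like cells (2.76 and 0.711) and Scarb1 in endothelial-like cells (1.31 and 0.379). Trem2, a microglial receptor that binds apolipoproteins, was at 8.82 and 9.23 in microglia-like cells (0.07). For Cst3, 12 cathepsin and cystatin genes gave 32 pairs, with 1 higher (Ctsb in pericyte and smooth muscle-like cells, 0.480 and 1.18) and 2 lower (Ctss, 3.05 and 1.34, and Ctsz, 1.03 and 0.350, both in endothelial-like cells). In the same cells the summed level of the microglia markers was 16.1 and 7.99, with 2 of the 10 past the rule as lower, and its part in these 2 values, like that of the microglia markers in Ctsb, was not tested. Ctss, a cathepsin that cystatin C inhibits, stood at 22.04 and 22.6 in microglia-like cells (0.03). The 14 genes of iron uptake, storage and export gave 25 pairs, with 2 higher and 0 lower. Both were of Cp, which encodes the ferroxidase ceruloplasmin, in border macrophage-like (0.452 and 2.02) and endothelial-like cells (0.598 and 2.19). Cp was highest in fibroblast-like cells (3.60 and 4.03), and the summed fibroblast markers were 0.301 and 1.51 in border macrophage-like and 0.218 and 1.20 in endothelial-like cells; their part was not tested. All 7 of these pairs lay in the 3 classes with the fewest cells, where 3.78%, 4.05% and 3.47% of genes tested were past the rule as higher and 4.66% and 4.64% as lower in the first 2, in the order border macrophage-like, endothelial-like, and pericyte and smooth muscle-like cells.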

How the data were processed

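The table deposited by the authors holds 30223 gene symbols by 15930 cells. The authors made its values, treated here as a score, by a depth correction (SCT, per the name of the deposited table), and they are whole numbers but not raw counts, so the sequencing depth of a cell is unknown and no count model was used. Per the submitters' processing notes Seurat 3.0.0 and GRCm38 were used, with no role given. The aligner, the cell filter and any doublet removal are not given in the sources used here.

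With scanpy 1.11.5, 2000 variable genes (without the carrier and sex-linked genes), 30 principal components and 15 neighbours, Leiden clustering at resolution 1 returned 37 clusters, 9 of them unnamed. A marker counted for a cluster at 25% of its cells and 1.5-fold the other cells. A name needed 3 markers, and was withheld where another class reached 60% of them or led the 10 leading genes, or where under 40% of the markers counted with none leading. This naming rule was set after clusters were seen. Classes needed 20 cells in each library. All cells were kept: Scrublet called 61 wild-type (0.860%) and 209 knock-in cells (2.37%) as doublets. The carrier genes and all lists were chosen with earlier results of these data known. Named genes are the carriers, the 3 genes most like each, list genes past the size rule and the highest list genes by class. Intervals of shares are exact (Clopper-Pearson, 95%) and hold counting error alone. The size rule was tested on simulated data. Gene positions are from the annotation of GRCm38, and the printed stretches were placed by RefSeq starts. Values of a few genes under these rules are not reported here.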

Additional observations from a re-analysis of the deposited data

How the results depend on the processing

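No paired analysis was possible because each genotype was 1 pooled library, and for the same reason no replicate could be left out. Under 12 other settings and 3 more chosen after seeing the data (the dentate granule neuron-like class without its cluster with oligodendrocyte markers, 117 cells; cells with a barcode of both libraries left out; the 1% of highest cells left out), 1236 ratios were recomputed. Of these, 1210 kept their side of the size rule, 13 dropped below it, 13 passed it, and none past the rule changed sign. The count of 11 higher pairs became 1 (Cst3 in pericyte and smooth muscle-like cells) with a pseudocount of 1, 7 with 15 principal components, where 3 classes were missing, and 17 with values of 1 set to 0. The other 12 settings gave 10 to 13, and the count of lower pairs was 0 in all 15. All 7 calls of Ptgds were lost with a pseudocount of 1, and that in immature neuron-like cells also with 15 principal components (0.47). Ptgds was above 0 in every class present under all 15. With 15 principal components the choroid plexus-like ratio of Ttr was -0.27 and that of Cst3 -0.25, and the immature neuron-like ratios of Apoe, Clu and Cst3 were -0.72, -0.52 and -0.69. The highest class of each gene was the same except for Apoe, which was highest in astrocyte-like cells where border macrophage-like cells were missing. With values of 1 set to 0 the median level outside the source class was 2.64 and 3.95 for Ttr and 2.23 and 5.60 for Ptgds. The cause of these shifts was not tested. Classes of 25 to 48 cells and levels under 1 per 10000 limit what can be read.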
